A study of Mus musculus with 24 samples.

Results

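The cytochrome P450 genes were taken as the genes whose single annotated symbol is Cyp followed by a digit, with Cyp2f2 left out. The array named 62 such genes out of 12393 genes with 1 symbol, and each was represented by the probe set with its highest mean. Of the 62, 21 had a mean signal of at least 169 and entered the tests, and 41 lay under that mark and are called dim here. Lung RNA had been hybridised to 24 Affymetrix Mouse 430A arrays, 2 for each of 12 kinds of untreated male mice aged 8 weeks from the Jackson Laboratory. Among them were C57BL/6J (B6) and C3H/HeJ (C3), the parents of the cross, and the hybrid of the first generation (BXHF1, here F1). The others were the recombinant inbred (RI) strains BXH2, BXH4, BXH6, BXH7, BXH8, BXH9, BXH10, BXH14 and BXH19. Each RI strain was inbred from the cross of both progenitors and carries, at most loci, 2 copies of the allele of 1 of them. No label says that a strain's arrays stand for different animals, so p-values reflect the spread of these samples alone, which may be technical. An array is named by its strain and replicate number, such as BXH8-1.

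Cytochrome P450 enzymes are haem proteins that insert an oxygen atom into fat-soluble molecules. Members of families 1 to 3 mostly oxidise drugs, smoke constituents and other foreign compounds, members of family 4 oxidise the ends of fatty acids and eicosanoids, and most others make or break down sterols, steroids, bile acids, retinoids and vitamin D. Microsomal members receive electrons from P450 oxidoreductase (Por). The liver holds most of these enzymes, while in mouse lung the secretory club cells of the airway are known for a few of them. Several genes are induced by ligands through receptors: Cyp1a1 through the aryl hydrocarbon receptor (AHR), and Cyp2b10 through the constitutive androstane receptor.

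The 250 bases before the transcription start are shown for the 4 genes whose strain values receive the most space below. They are RefSeq sequences of the mouse assembly GRCm38.p6, which is a C57BL/6J sequence, and C3 sequence was not analysed here. Capitals mark the TATA box motif (TATAAA) and the core (GCGTG) of the element bound by AHR and its partner Arnt. Both strands were searched, and a match on the reverse strand is capitalised as it reads on the printed one. Positions are chr9:57697363-57697612 on the plus strand for Cyp1a1, chr7:25897408-25897657 on the plus strand for Cyp2b10, chr7:140763569-140763818 on the plus strand for Cyp2e1 and chr8:72009627-72009876 on the minus strand for Cyp4f18, each written 5′ to 3′ in the direction of the gene.
Cyp1a1: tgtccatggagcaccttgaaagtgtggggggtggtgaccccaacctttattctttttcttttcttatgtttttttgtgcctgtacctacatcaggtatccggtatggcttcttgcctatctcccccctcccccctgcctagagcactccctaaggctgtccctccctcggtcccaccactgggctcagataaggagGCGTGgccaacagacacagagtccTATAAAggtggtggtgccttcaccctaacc
Cyp2b10: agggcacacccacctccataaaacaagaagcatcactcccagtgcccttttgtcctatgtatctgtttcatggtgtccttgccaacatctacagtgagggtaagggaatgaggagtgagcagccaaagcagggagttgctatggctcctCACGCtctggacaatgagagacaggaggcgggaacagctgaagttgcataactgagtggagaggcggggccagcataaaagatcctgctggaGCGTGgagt
Cyp2e1: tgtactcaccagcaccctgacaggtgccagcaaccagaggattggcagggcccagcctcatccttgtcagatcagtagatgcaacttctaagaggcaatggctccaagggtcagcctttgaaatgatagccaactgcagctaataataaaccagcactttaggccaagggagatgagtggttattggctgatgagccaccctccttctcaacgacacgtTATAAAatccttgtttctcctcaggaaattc
Cyp4f18: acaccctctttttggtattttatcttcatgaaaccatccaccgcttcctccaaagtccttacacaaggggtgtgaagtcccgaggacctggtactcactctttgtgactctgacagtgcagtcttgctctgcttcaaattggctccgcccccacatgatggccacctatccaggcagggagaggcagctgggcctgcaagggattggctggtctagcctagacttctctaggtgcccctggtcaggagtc
Cyp1a1 held TATAAA with its first base at -30 from the start and GCGTG at -54. Cyp2b10 held GCGTG at -9 and, on the reverse strand, at -101, Cyp2e1 held TATAAA at -31, and Cyp4f18 held neither. The RefSeq promoter table matched 45 of the 62 genes. A gene was counted if any of its promoters held the motif. TATAAA occurred in 17 of these 45 (37.8%), against 14.3% of 27025 genes with a promoter of the same length. GCGTG occurred in 11 of 45 (24.4%, against 30.9%) and the E box CACGTG, which 6.86% of the 27025 genes held, in 2 of 45 (4.44%). These are matches of letters in a fixed window, and no binding was measured.

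The 62 genes fell mainly into family 2 (30 genes, 9 of them tested), family 4 (10, with 5 tested) and family 3 (5, with 1 tested). Both Cyp1a1 and Cyp1b1 of the 3 family 1 genes were tested, as were Cyp21a1, Cyp27a1, Cyp39a1 and Cyp51 among the sterol and steroid enzymes. A probe set's signal is not a scale for comparing genes, so each gene is described against itself. The 10 genes with the highest mean signal were Cyp4b1 (4388.5 to 7337.7 over the 24 arrays), Cyp2b10 (2413.7 to 5185.5), Cyp2s1 (1285.1 to 2339.4), Cyp2e1 (310 to 1809.4), Cyp4v3 (507.5 to 917), Cyp1a1 (192.3 to 1448.4), Cyp27a1 (300.5 to 773.3), Cyp2d22 (405.7 to 731.8), Cyp4f16 (338.7 to 622.9) and Cyp1b1 (216.6 to 520.1). Within this group Cyp1a1 varied most, 7.53-fold from its lowest to its highest array, followed by Cyp2e1 at 5.84-fold, while Cyp4b1 spanned 1.67-fold. The other tested genes were Cyp2d13, Cyp21a1, Cyp3a11, Cyp2c38, Cyp51, Cyp2c70, Cyp2c29, Cyp39a1, Cyp2c54, Cyp4f15 and Cyp4f13. Just above the mark lay Cyp4f13 (mean 182.1) and Cyp4f15 (185.2), and just below it Cyp2c23 (158.2) and Cyp4a12a (157.7).

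The 41 dim genes had mean signals from 4.4 (Cyp3a16) to 158.2. Among the foreign-compound families they were Cyp1a2, Cyp2a12, Cyp2b9, Cyp2b13, Cyp2b19, Cyp2c23, Cyp2c37, Cyp2c39, Cyp2c50, Cyp2c55, Cyp2c65, Cyp2c68, Cyp2d9, Cyp2d10, Cyp2d12, Cyp2d26, Cyp2d34, Cyp2g1, Cyp2j5, Cyp2j6, Cyp2j9, Cyp2j13, Cyp3a13, Cyp3a16, Cyp3a25 and Cyp3a44. The dim family 4 genes were Cyp4a12a, Cyp4a14, Cyp4a31, Cyp4f14 and Cyp4f18. The dim enzymes of bile acids were Cyp7a1, Cyp7b1 and Cyp8b1, those of steroids Cyp11a1, Cyp11b2 and Cyp17a1, those of vitamin D Cyp24a1 and Cyp27b1, that of retinoic acid Cyp26a1, and that of brain cholesterol Cyp46a1. The files give no detection call, so a dim signal cannot be read as a level above background.

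The arrays carried a common scaling, with median signals between 239 and 269.6. Across tested genes, both arrays of a strain correlated at 0.949 to 0.975 and arrays of different strains at 0.909 to 0.969, and no array duplicated another. Lung markers were high throughout, with alveolar type 2 markers summing to 49296.3 to 76366.6 and alveolar type 1 markers to 22101.8 to 34271.4. Markers of other tissues stood apart on single arrays: 8 hepatocyte markers on BXH8-1 (summed 7103, against at most 802.4) and 6 heart markers on BXH9-1 (summed 34971.6, against at most 18535.8). The brown fat gene Ucp1 was highest on F1-1 (1830.9, with a median of 9.5 over all arrays). It was also raised on BXH2-2 (843.3), BXH10-1 (248.1), BXH2-1 (169.6) and BXH14-2 (116.4). Skeletal muscle markers summed to 24245.7 on BXH9-2 and to as little as 1145.8 on BXH19-2.

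The series was made to compare expression between RI strains, progenitors and hybrid. Signals were compared as log2(signal + 16), a scale that understates changes of dim genes, in 1 limma fit over 8280 genes, and a gene was called with a Benjamini-Hochberg adjusted p below 0.05. Limma called 0 of the 21 genes in the F test over 12 strains, in which it called 10.5% of all genes. Before adjustment 6 of the 21 had p below 0.05, against 25.6% of all genes. In the F test over the 9 RI strains it called 0 of 21 (4 before adjustment), against 9.32% of all genes called and 24.9% before adjustment. The strain means of a P450 gene nevertheless spanned a median log2 range of 0.676, against 0.538 over all tested genes, and the median standard deviation within strains was also wider (0.258 against 0.185).

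**Figure D1:**
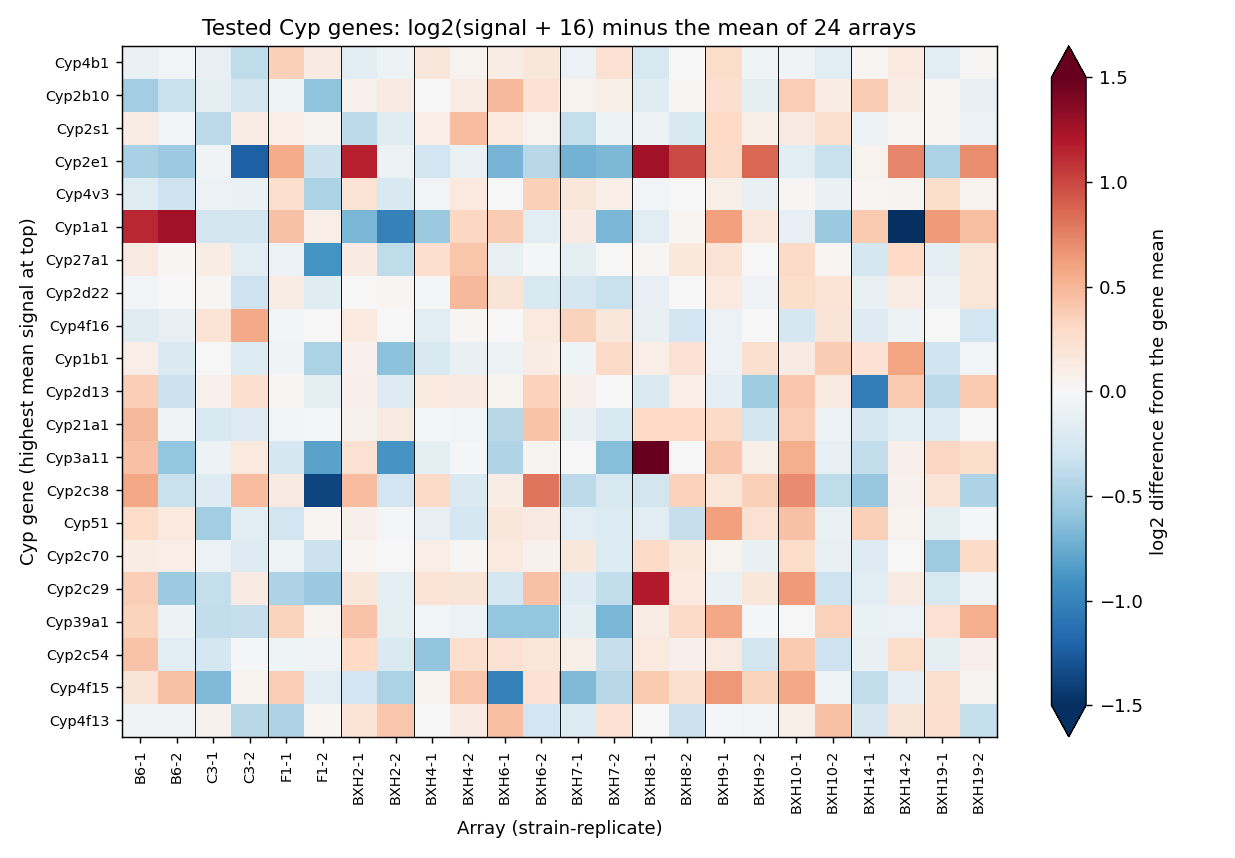
Log2(signal + 16) of the 21 tested genes (rows, highest mean signal at the top) on the 24 arrays (columns, both arrays of a strain side by side), as the difference from each gene's mean over all arrays. Red is above and blue below the mean, with colours capped at 1.5 either way; Cyp1a1 is red on both B6 arrays, and Cyp2e1 has its highest values on BXH8-1 and BXH2-1.

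Between the progenitors, limma called 0 of 21 genes higher in C3 than in B6 (0.749% of all genes were) and 0 of 21 lower (0.918% of all genes). Before adjustment Cyp4f16 was the single gene with p below 0.05 on the higher side, and Cyp1a1 and Cyp51 were the genes on the lower side, where 4.43% and 4.9% of all genes had such a p. Fitted differences were below 0 for 15 of the 21 genes, with a median of -0.124 log2 against 0.005 over all genes. Both C3 arrays lay below both B6 arrays for 7 genes (Cyp1a1, Cyp21a1, Cyp2c70, Cyp39a1, Cyp4b1, Cyp4f15 and Cyp51), where 17.7% of all genes did so. Both lay above for Cyp2b10, Cyp4f16 and Cyp4v3, where 19% of all genes did. The 95% confidence intervals of these differences were between 0.597 and 1.96 log2 units wide, so an equal level in both strains is not shown for any of the genes.

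**Figure D2:**
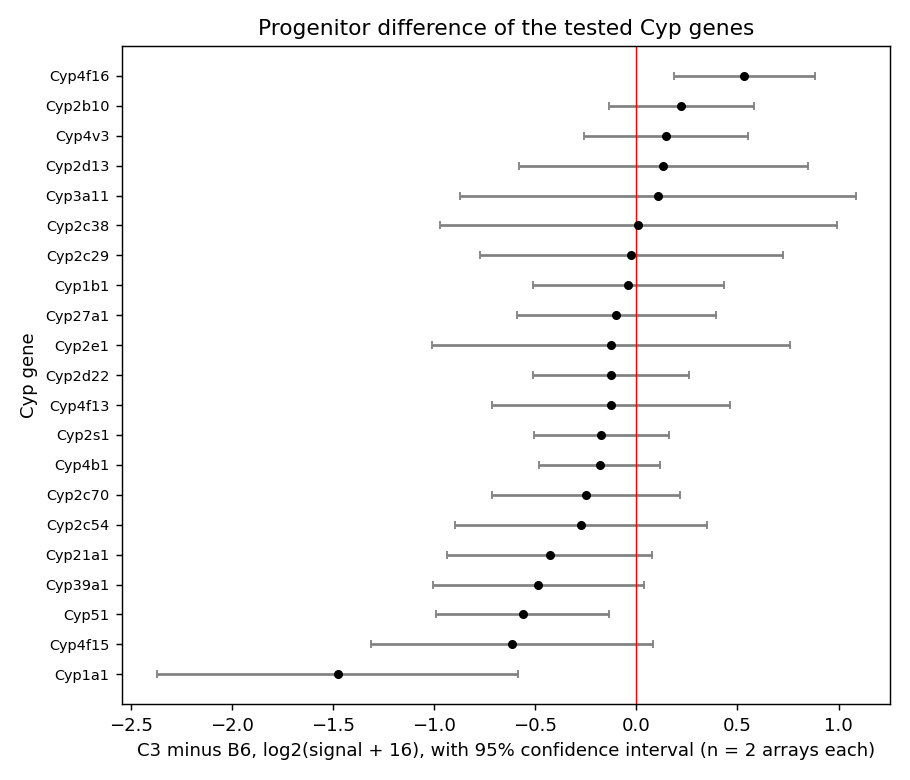
Difference C3 minus B6 of log2(signal + 16) for the 21 tested genes (points) with 95% confidence intervals from limma (bars), 2 arrays per strain. Intervals that leave out 0 belong to Cyp4f16 (above) and to Cyp51 and Cyp1a1 (below), before adjustment for the number of genes; the interval of Cyp1a1 runs from -2.37 to -0.58.

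Cyp1a1, the AHR-induced enzyme that oxidises polycyclic hydrocarbons of smoke, gave 1320.6 and 1448.4 on the B6 arrays, 487.1 and 486.5 on the C3 arrays, and 812.2 and 635.2 on the F1 arrays. The RI arrays gave 362.9 and 286.8 in BXH2, 397.5 and 739.7 in BXH4, 780.5 and 531.4 in BXH6, 646.6 and 364.2 in BXH7, 528 and 607.9 in BXH8, 914.4 and 662.1 in BXH9, 541.5 and 398.1 in BXH10, 785.3 and 192.3 in BXH14, and 934 and 816.1 in BXH19. Both B6 arrays lay above all 22 other arrays, a pattern that 0.459% of all tested genes had and that no other P450 gene among the 21 had. The strain means were 1384.5 ± 90.4 in B6 and 486.8 ± 0.4 in C3 (SD, n = 2 each). On the log2 scale of the fit, all 9 RI means lay below B6, 8 of them nearer C3 than B6, and 4 were below both progenitors. As linear means, BXH7 (505.4) and BXH14 (488.8) lay just above C3 instead of below it. The share of all genes with RI means placed like this was not counted. C3 minus B6 was -1.48 (SE 0.43, adjusted p = 0.111 in limma), and the F test over 12 strains gave an adjusted p of 0.0828.

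Whether Cyp1a1 was called turned on the 2 BXH14 arrays, which lay far apart. Without BXH14-2 the adjusted p of C3 minus B6 was 0.00868 and that of the F test 0.00641; without BXH14-1 they were 0.00874 and 0.00147. Fitted on the 4 progenitor arrays alone, C3 minus B6 was also -1.48, with an adjusted p of 0.00258, while over all alternatives run it reached 0.374. Summed signals of 6 markers of squamous epithelium (Krt4, Krt5, Krt13, Krt14, Krt15 and Sprr1a) were 11739.3 and 4487.6 on the B6 arrays and 392.4 and 2449.6 on the C3 arrays. They were highest, at 11804.9, on BXH8-2, where Cyp1a1 gave 607.9. Of these markers Krt4 and Krt13 did not overlap between B6 and C3, while Krt5, Krt14, Krt15 and Sprr1a did. Krt15 gave 520.8 and 11.4 in B6 against 7.8 and 529.9 in C3. Whether squamous epithelium has a part in the Cyp1a1 values was not tested. In bulk lung RNA, fewer cells of a type and less RNA per cell cannot be told apart.

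Cyp1a2, which RefSeq lists on the same chromosome 9 and which AHR also induces, was dim, with signals of 14.1 to 90.4 over all arrays and, on the B6 and C3 arrays, of 15.6 to 21.6. Cyp1b1, the AHR-induced family member of stromal cells, gave 364.6 and 290.2 in B6, within which both C3 values lay (341.6 and 292.9). Its C3 minus B6 difference was -0.04 (SE 0.23, 95% interval -0.51 to 0.43). The sign of this difference turned without B6-1 (0.118) and without C3-2 (0.067). Cyp1b1 had its highest strain mean in BXH14 (395.7 and 520.1) and gave less in BXH2 (355.8 and 216.6) and F1 (326.6 and 239.6), and its F test gave an adjusted p of 0.351 in limma.

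Cyp2b10, the phenobarbital-inducible enzyme of liver and of club cells, had the lowest p of the 21 genes in the F test over 12 strains, with an adjusted p of 0.0519 in limma. It gave 2553.4 and 2919.3 on the B6 arrays, 3347.2 and 3037.2 on the C3 arrays, and 3533.4 and 2413.7 on the F1 arrays. The RI arrays lay between 3242.8 (BXH8-1) and 5185.5 (BXH6-1), with 5185.5 and 4274.3 in BXH6, 4795.9 and 3983 in BXH14, and 4747.9 and 3995.1 in BXH10. All 9 RI means were above both progenitor means, and the RI range overlapped C3-1 and F1-1. The share of all genes with RI means in that position was not counted. The adjusted p over the 9 RI strains was 0.487 and that of C3 minus B6 (0.22, SE 0.17) was 0.835.

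A further 2 probe sets are annotated to Cyp2b10. The first gave 1370.3 and 1523.5 on the B6 arrays, 2060.6 and 1757.1 on the C3 arrays, 1704.1 and 1707.7 in F1, and 1749.1 to 2800.1 on the RI arrays. The second gave 1668.2 and 2551.9 on the B6 arrays, 2937.3 and 3037.6 on the C3 arrays, 2143 and 2318.5 on the F1 arrays, and 2387.6 to 3933.3 on the RI arrays. On these probe sets, unlike the brightest, 6 and 5 of the 9 RI means lay above both progenitor means, and the other 3 and 4 lay between B6 and C3. The second and the brightest are of the s_at type, which can bind transcripts of related genes, and the Cyp2b subfamily has several close members. With the mean of all 3 probe sets the F test over 12 strains gave an adjusted p of 0.0162, and with the first tested by itself 0.031. Across the settings run, the adjusted p of Cyp2b10 lay between 0.015 and 0.139 and passed the threshold in 8 of 34. Leaving out 1 array of F1 or of BXH9 was enough for it to pass, with 0.015 and 0.0497 for the F1 arrays and 0.0461 and 0.039 for those of BXH9.

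Markers of club cells were also summed. The sum of 6 (Scgb1a1, Scgb3a1, Scgb3a2, Cbr2, Cldn10 and Aldh1a7) lay between 39592.2 and 63765.1, and limma called 0 of the 6 over the 12 strains (3 before adjustment). A split between RI strains and the rest appeared in an output gene of the circadian clock. Dbp, a clock-driven transcription factor, gave 142 to 402.5 on the B6, C3 and F1 arrays and 504.5 to 2326.9 on the RI arrays. These did not overlap, and the share of all genes with such a split was not counted. Limma called 10 of 12 tested genes of the clock list over the 12 strains, against 10.5% of all genes. This list included the haem synthesis gene Alas1, which was not called (adjusted p = 0.0524), and neither was Cry2 (0.144). Like Dbp, Nr1d2, Tef, Nr1d1 and Alas1 were lowest in B6, while Hlf and Per3 were lowest in F1. Arntl had its highest strain mean in B6 and Clock in F1. Per1, Per2 and Cry2 instead had their lowest strain means (409.9, 170.3 and 235.4, log2 means turned back to signals) in BXH7, an RI strain. The labels give no time of harvest. The part of club cells or of the clock in the Cyp2b10 values was not tested.

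**Figure D3:**
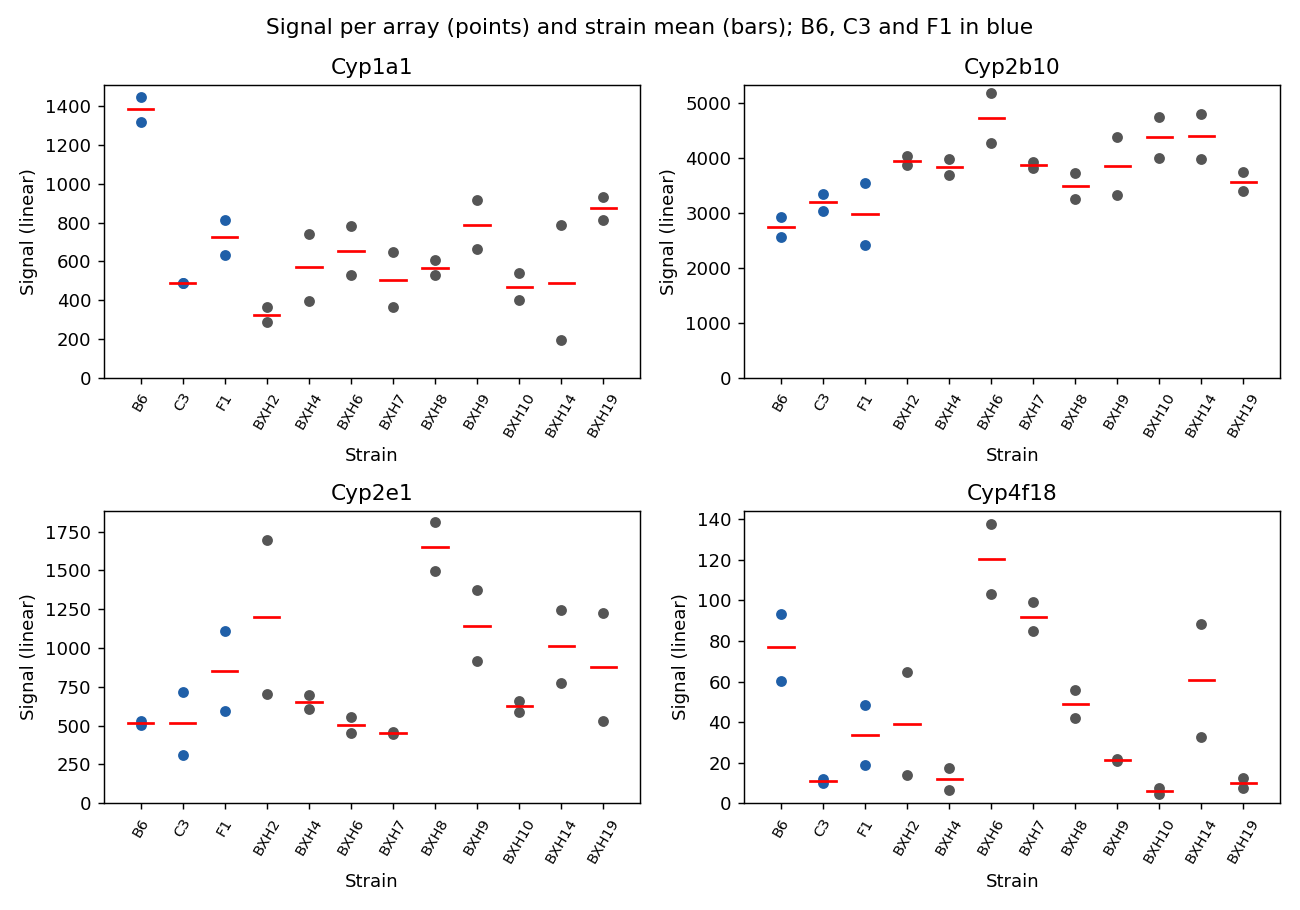
Signal on a linear scale (vertical axis) by strain (horizontal axis) for Cyp1a1, Cyp2b10, Cyp2e1 and Cyp4f18. Points are arrays, 2 per strain, red bars are strain means, and blue points are B6, C3 and F1; Cyp1a1 peaks in B6 with a mean of 1384.5, Cyp2b10 in BXH6, Cyp2e1 in BXH8, and Cyp4f18 in BXH6 with a mean of 120.3.

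Cyp2e1, the ethanol-oxidising enzyme of liver that fat cells also transcribe, gave 526.9 and 507.1 on the B6 arrays, 718.4 and 310 on the C3 arrays, and 1109.3 and 592.3 on the F1 arrays. BXH8 was high on both arrays (1809.4 and 1493.5), BXH2 on 1 of them (1694.6 and 705), and BXH7 was low on both (449.3 and 461.4). The remaining RI arrays lay between 452.9 (BXH6-1) and 1372.3 (BXH9-2). Against the average of the 8 RI strains besides it, BXH8 differed by 1.13 (SE 0.32, adjusted p = 0.0957 in limma), and BXH7 gave -0.91 (SE 0.32, adjusted p = 0.228). The F tests gave adjusted p values of 0.0577 over 12 strains and 0.0649 over the RI strains. They passed the threshold in 7 of 35 and 7 of 36 settings, with a lowest value of 0.0197 and 0.0205 without BXH2-2 and a highest of 0.155 and 0.165 without BXH8-1.

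The 4 arrays with the highest Cyp2e1 (BXH8-1, BXH2-1, BXH8-2 and BXH9-2) were also the 4 with the most adipocyte marker signal. The summed signal of Adipoq, Car3, Cidec, Lep and Retn, the 5 adipocyte markers measured of 7 listed, ranged from 1366.5 on BXH10-2 to 9205.5 on BXH8-2. It was 8033.1 on BXH8-1, 8043.4 on BXH2-1, 7461.8 on BXH9-2 and 7406.8 on BXH14-2. Between both arrays of a strain, Cyp2e1 and this sum had the same order in 10 of 12 strains, as had Cyp27a1, Cyp1b1 and Cyp2c38, while the other 17 tested genes had it in 4 to 9. Lep gave 11.3 to 49.3 over the arrays. The part of adipocyte RNA in the strain values of Cyp2e1 was not tested.

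Cyp2s1, an enzyme of epithelia that metabolises retinoic acid, gave 1813.4 and 2339.4 in BXH4, its highest strain, and 1285.1 and 1495.1 in BXH2, its lowest. Its adjusted p was 0.184 over 12 strains and 0.124 over the RI strains in limma. Of the tested genes in the drug-oxidising 2C and 2D subfamilies (Cyp2c29, Cyp2c38, Cyp2c54, Cyp2c70, Cyp2d13 and Cyp2d22), none had an adjusted p under 0.521 over 12 strains. Cyp2d22 gave 430.6 and 405.7 in BXH7, where its difference from the other RI strains was -0.36 (SE 0.14, adjusted p = 0.296). Cyp2c38 lay between 86.1 (F1-2) and 444.4 (BXH6-2), with a standard deviation within strains of 0.551 log2.

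Cyp3a11, the main drug-oxidising Cyp3a enzyme of mouse liver, and Cyp2c29, a hepatic epoxygenase, stood out on a single array. Cyp3a11 gave 897.6 on BXH8-1 and 246.2 on BXH8-2, and the next highest array was BXH10-1 at 368.2. Cyp2c29 gave 463.3 on BXH8-1 and 216.1 on BXH8-2, with 311.2 on BXH10-1. BXH8 minus the other RI strains was 0.93 for Cyp3a11 (SE 0.35, adjusted p = 0.277 in limma) and 0.66 for Cyp2c29 (SE 0.27, adjusted p = 0.341). Without BXH8-1 these differences were 0.033 and 0.134, and without BXH8-2 that of Cyp3a11 was 1.83 with an adjusted p of 0.0339. That of Cyp2e1 was 0.995 without BXH8-1.

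Several dim genes did the same. Cyp3a25 gave 90.2 on BXH8-1 and at most 10.1 elsewhere, Cyp2d26 79.3 and at most 18.3, Cyp2d10 55.6 and at most 26.7, and Cyp2c50 135.1 and at most 66.6. On BXH8-1, 5 of the 62 genes were more than 2-fold above their next highest array, as were 25 of all 12393 genes there, and no other array had any P450 gene that far above the rest. BXH8-1 was the highest array for 9 of the 62 (14.5%), against 3.08% of all genes. It was also the highest array for all 8 hepatocyte markers, which summed to 7103 there and to 456.5 to 802.4 on the others. Albumin (Alb) gave 3846 on BXH8-1 and at most 281.3 elsewhere, while the fibrinogen gene Fgb gave 143.5 there and at most 8 elsewhere.

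**Figure D4:**
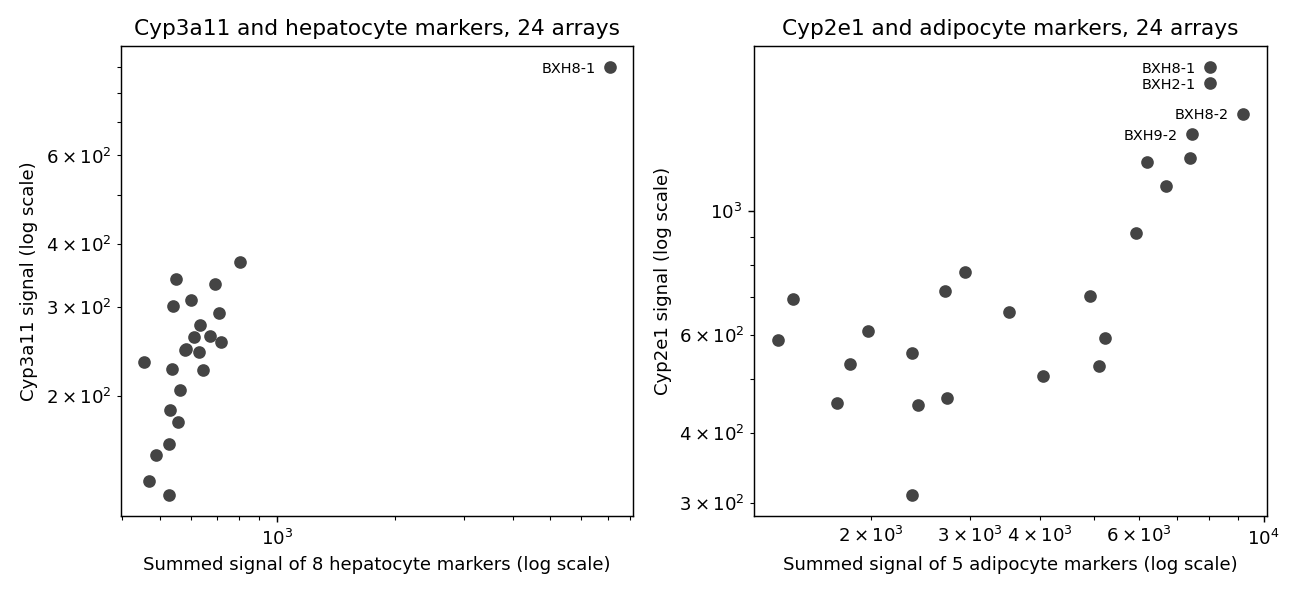
Left, Cyp3a11 signal against the summed signal of 8 hepatocyte markers; right, Cyp2e1 signal against the summed signal of 5 adipocyte markers; each point is 1 of 24 arrays and all axes are logarithmic. BXH8-1 stands alone on the left at a marker sum of 7103 and a Cyp3a11 signal of 897.6, and on the right the named arrays are high on both axes.

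The family 4 genes encode enzymes that oxidise fatty acids and eicosanoids. Cyp4b1, the lung form that also activates plant furans, gave 7337.7 and 6231 in F1, 5343.8 and 5540.4 in B6, and 5234.4 and 4388.5 in C3. F1 minus the midparent, which is the average of the log2 values of B6 and C3, was 0.40 (SE 0.12, adjusted p = 0.346 in limma). Across all F1 tests, limma called 0 of 21 genes higher (0.0242% of all genes were) and 0 of 21 lower (0% of all genes), and before adjustment Cyp4b1 and Cyp27a1 were the genes with p below 0.05, on the higher and the lower side, where 3.04% and 5.12% of all genes had such a p.

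Cyp4f16, of the subfamily that inactivates leukotrienes, gave 480.5 and 622.9 on the C3 arrays, which lay above 364.7 and 381.6 on the B6 arrays. F1 lay between, at 402 and 412.8. Its C3 minus B6 difference was 0.53 (SE 0.17, 95% interval 0.19 to 0.88), with an adjusted p of 0.153 in limma. Of the RI means, 8 of 9 lay above B6 but 1 was nearer C3. A second probe set of Cyp4f16 gave 144.4 and 145 in C3, above the B6 values of 108.5 and 117.4. Cyp4f15, of the same subfamily on chromosome 17, went the other way, with C3 values of 106.5 and 184.5 below the B6 values of 205.1 and 245.1, and was low on BXH6-1 (79.7), but its difference of -0.62 had an adjusted p of 0.633. Cyp4v3, which hydroxylates fatty acids in many tissues, gave 668.3 and 664.3 in C3 and slightly less in B6 (630 and 571.3). On its brightest probe set all 9 RI means were above both progenitors, and the F test over 12 strains gave an adjusted p of 0.783. A second probe set gave 369.5 and 319.6 in C3, 320.6 and 280.7 in B6, and 244.1 (BXH8-2) to 372 (BXH19-1) on RI arrays. There the RI values reached below both B6 arrays. How often all genes have RI means placed as for Cyp4f16 or Cyp4v3 was not counted. Cyp4f13 had an adjusted p of 0.859.

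Cyp4f18, the leukotriene-inactivating enzyme of neutrophils, gave signals under the dim mark on every array, and among the dim genes it had the lowest p between strains when dim genes were also tested. It gave 60.2 and 93.4 on the B6 arrays, 9.8 and 12.2 on the C3 arrays, and 19.1 and 48.3 on the F1 arrays. The RI strains BXH6 (137.5 and 103.2) and BXH7 (99 and 84.9) were high, and BXH4 (17.5 and 6.4), BXH9 (21.8 and 21), BXH10 (4.5 and 7.4) and BXH19 (12.7 and 7.7) were low. BXH8 (55.9 and 42.2), BXH14 (32.7 and 88.4) and BXH2 (13.7 and 64.8) lay between or spread widely. In a fit with no filter on dim genes, limma called it over 12 strains (adjusted p = 0.00339, with 6.54% of 12393 genes called), over the RI strains (0.00313, 6.12%) and higher in BXH6 than in the other RI strains (1.62, SE 0.32, adjusted p = 0.0157, 0.613%). C3 minus B6 was -1.76 (SE 0.42), with an adjusted p of 0.0539. Limma called none of the other 40 dim genes over 12 strains in that fit, where 2 had an unadjusted p below 0.05, Cyp2d9 (adjusted p = 0.145) and Cyp1a2 (0.18). Cyp4f18 was singled out after its values were seen, and signals this low have no background reading beside them.

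Among the sterol and steroid enzymes, Cyp51, which demethylates lanosterol on the way to cholesterol, gave 159 and 208 in C3, below 289.1 and 263.7 in B6 (-0.56, SE 0.20, adjusted p = 0.282 in limma). BXH9 was the highest strain (371.4 and 278.7), 0.44 above the other RI strains with an adjusted p of 0.145. Cyp39a1, an oxysterol hydroxylase of bile acid synthesis, gave 126.5 and 126.8 in BXH6 against 177.9 to 302.2 on all RI arrays outside BXH6 and BXH7. BXH7 gave 178.2 and 116.3, the latter the lowest of the 24 arrays. Its BXH6 difference of -0.66 (SE 0.19) had an adjusted p of 0.0795, the lowest of the 189 tests of a P450 gene in 1 RI strain against the other 8. Without BXH2-2 it was -0.69 with an adjusted p of 0.0486.

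Cyp27a1, the mitochondrial sterol hydroxylase, gave 541.1 and 300.5 in F1 against 511.3 to 632.8 on the progenitor arrays (-0.52, SE 0.20, adjusted p = 0.526 in limma). The low value came from F1-2, and without that array the difference was -0.11. F1-2 was the lowest of the 24 arrays for 16 of the 62 P450 genes (25.8%), against 8.3% of all genes. These shares are not like for like. Most of these 16 genes were dim, as were 41 of the 62, while 8280 of all 12393 genes passed the dim mark. Cyp21a1, which the adrenal cortex uses to make corticosteroids, gave 277.2 and 285 in C3, below 465 and 316.5 in B6. Its F test over 12 strains gave an adjusted p of 0.706. On a second, weaker probe set of Cyp21a1, C3 gave 113.1 and 99.1, within the B6 values of 147.4 and 98.2. Signals of Star, Hsd3b1 and Nr5a1, markers of steroid-producing cells, summed to 299.8 to 540.1, and limma tested 1 of them and called 0 over the strains (0 with an unadjusted p below 0.05).

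Over the 9 comparisons of 1 RI strain with the mean of the others, limma called 0 of 189 tests of a P450 gene, while it called 2.16% of the tests of all genes. Before adjustment 20 of the 189 had p below 0.05, against 13.3% of all tests. They were spread over the strains, with 5 in BXH7, 3 each in BXH2, BXH6 and BXH8, 2 each in BXH9 and BXH19, 1 each in BXH4 and BXH14, and none in BXH10.

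Genes around the P450 system were read from the same fit. Strain means given for them here and in the next paragraph are log2 means turned back to signals. Those given for P450 genes are plain averages of the signals. Of 8 tested electron transfer partners, limma called 1 over the 12 strains, the cytochrome b5 reductase Cyb5r3 (highest in BXH6, mean 5210.7, and lowest in BXH9, 3137.1, adjusted p = 0.0294). None of 7 tested xenobiotic receptors and partners was called by limma (3 before adjustment). Ahr ranged from 1197.4 to 2324.3 over the arrays (adjusted p = 0.177), and the AHR-induced Tiparp from 1111.7 to 1740.1 (0.0519). Ahrr, the AHR repressor that AHR itself induces, gave 3.3 to 19.2. Of 12 target enzymes of AHR or of the oxidant sensor NRF2, 2 were called over the strains. They were Gclc, which limits glutathione synthesis (highest in B6, 1483.9, and lowest in BXH2, 590.4, adjusted p = 0.00115), and the glutathione transferase Gsta3 (highest in BXH19, 1030.4, and lowest in BXH7, 510.9, adjusted p = 0.00345). B6 and BXH2 were also the highest and the lowest strain of Cyp1a1, but no other enzyme of this list had that pair of strains. The AHR target Nqo1 gave overlapping values in B6 (309.1, 155.7) and C3 (153.7, 257.4), and the aldehyde dehydrogenase Aldh3a1 was highest in B6 (720.6) with an adjusted p of 0.0577. Between C3 and B6 limma called none of these 3 lists, with 1, 0 and 2 genes below 0.05 before adjustment.

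Of 23 other oxidation and conjugation enzymes, 3 were called over the 12 strains: the sulfotransferase Sult1d1 (highest in BXH14, 897.1, lowest in B6, 275.4), the epoxide hydrolase Ephx1 (BXH10, 2871.4, and C3, 1626.8) and the glutathione transferase Mgst3 (BXH6, 1211.6, and BXH4, 636.7). Of 10 eicosanoid enzymes and P450 enzymes without a Cyp symbol, 2 were called over the strains, the prostaglandin-inactivating Hpgd and the leukotriene-making Lta4h. Lta4h was also lower in C3 than in B6 (-0.60, adjusted p = 0.0219 in limma). Of 16 sterol synthesis genes 4 were called over the strains (Sc5d, Idi1, Msmo1 and Hmgcs1), and Sc5d, a desaturase of the last steps to cholesterol, was lower in C3 (-1.21, adjusted p = 1.64e-04). Of 9 retinoid genes 3 were called (Rbp4, Aldh1a2 and Rarg), and the retinoic acid receptor Rarg was higher in C3 (0.55, adjusted p = 0.0446). These counts, from 0% of the receptor list to 33.3% of the retinoid list, stand beside 10.5% of all tested genes and 0 of 21 P450 genes.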

How the data were processed

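Per the labels' protocols, lung RNA was isolated with Trizol, primed with T7-oligo(dT) and turned into biotin-labelled cRNA. The authors' deposited table holds linear intensities (signals) of 22690 probe sets, and every array has a mean of 500.11 to 500.13 once 2 percent of values are trimmed at either end. For the software and for background subtraction the sources used here give nothing. Of the probe sets, 20380 had 1 symbol in the platform annotation, 691 several and 1555 none, and 64 were controls. Probe sets with several symbols were left out.

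Signals were analysed as log2(signal + 16) with limma 3.58.1 in R 4.3.3 (lmFit, eBayes with a mean-variance trend), 12 strains as groups and 12 residual degrees of freedom. Each gene was its probe set of highest mean and was tested if this was in the top 60 percent of probe sets. Benjamini-Hochberg adjustment ran over 8280 genes per comparison, with a threshold of 0.05. The fit was tested on simulated data. The rule for named genes took any P450 gene that passed a test, the 10 brightest, all dim genes, and up to 4 members of smallest p per pathway list. P450 genes described for an unadjusted p below 0.05 or for single arrays were chosen after their values were seen. The members and lists were chosen with earlier results of these data known. The number of arrays limits the precision. Alternatives covered normalization, offset, filter, probe set, trend, replicate number and the arrays in the fit.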

Additional observations from a re-analysis of the deposited data

How the results depend on the processing

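With 2 arrays per strain there were intervals of 0.597 to 1.96 log2 units for C3 minus B6, and dim signals have no measured background. Of the differences recomputed, that of Cyp1b1 between C3 and B6 changed direction, from -0.196 to 0.118 as each array was left out. Of 216 counts of called P450 genes over the alternatives, 40 moved from 0. Over the 12 strains 1 gene was called under quantile normalization (Cyp2b10, adjusted p = 0.0323 in limma), median centring (Cyp2e1, 0.0499), no filter (Cyp4f18, 0.00339), the top 40 percent (Cyp2b10, 0.0467), the mean of probe sets (Cyp2b10, 0.0162) and every probe set (Cyp2b10, 0.031). Over the RI strains 1 was called with no filter (Cyp4f18, 0.00313) and with only the RI arrays (Cyp2e1, 0.0424). Between progenitors 1 was called lower in C3 with only the B6 and C3 arrays (Cyp1a1, 0.00258) and with only B6, C3 and F1 (0.00385). Among the single RI strains 1 was called with no filter (Cyp4f18 in BXH6, 0.0157). Offsets of 1 and 64, no trend and leaving out both BXH4 arrays gave 0 calls. Leaving out each array in turn gave 0 to 2 genes over the 12 strains, 0 to 1 over the RI strains, 0 to 1 lower in C3 and 0 to 1 in the single RI strains. Counts higher in C3 and for F1 were 0 throughout. Of the values of single named genes, 33 passed the threshold under an alternative and 1678 stayed on their side of it.

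Same-numbered arrays deviated together, at a correlation over 0.1, in 22 of 66 pairs of strains (median -0.00366), so the replicate numbers were not taken as pairs. With the replicate block, 1 gene was called over the 12 strains (Cyp2b10, adjusted p = 0.0385 in limma) and 0 in the other comparisons.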

Other observations

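Probe sets annotated to several symbols lay outside the selection. One that covers Cyp2a5 and Cyp2a4, which oxidise nicotine-like compounds and steroids, gave 242.4 to 684.1 on the B6, C3 and F1 arrays, with 386.9 and 330.8 in B6. On the RI arrays it ranged from 360 (BXH19-1) to 2307.6 (BXH9-1), with 1198 and 1643.5 in BXH4 and 869.6 and 1463.4 in BXH2. The high values were all on RI arrays, although BXH19 and BXH7 overlapped the progenitors. The probe set shared by Cyp4f37 and Cyp4f16 gave 383.9 and 336.5 in C3, above 283.1 and 274.9 in B6, the same order as Cyp4f16. That shared by Cyp4a31 and Cyp4a10 ranged from 45.8 to 153.1, and that of Cyp3a41b and Cyp3a41a did not exceed 3.9.

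Tbxas1 and Ptgis encode P450 enzymes that carry no Cyp symbol. Tbxas1, the thromboxane synthase, was dim (mean 153.8) and not tested, and gave 26.4 and 69.3 in BXH2 and 35.8 on BXH9-1, against 122.8 to 225.1 on the other arrays. Ptgis, the prostacyclin synthase, ranged from 2021.7 to 3155, with an adjusted p of 0.21 over the 12 strains in limma. Alas1, the first enzyme of haem synthesis, ranged from 2035.5 (B6-1) to 4280.7 (BXH4-1), with an adjusted p of 0.0524. BXH10-1 was the highest array for 10 of the 62 P450 genes (16.1%), against 7.42% of all genes. All of these 10 except Cyp2d13 were dim, and BXH10-1 also had the highest median signal of the arrays (269.6).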
